A study of Mus musculus with 14 samples.

Results

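The comparison described here asks whether the genes that separated PSGL1lo from PSGL1hi CD4+ T cells in the lung of mice with chronic graft-versus-host disease (cGVHD) also separated them in the spleen. For each gene it is the PSGL1lo minus PSGL1hi difference in lung less the same difference in spleen, on the log2 scale, so a positive value marks a gene shifted towards PSGL1lo cells more in lung than in spleen. It rests on 8 of the 14 libraries, in 4 of the 7 groups of the series with 2 libraries each: cGVHD-Lu-PSGL1lo, cGVHD-Lu-PSGL1hi, cGVHD-Sp-PSGL1lo and cGVHD-Sp-PSGL1hi. Of 25017 gene entries, 13780 had enough counts to be tested. Of these, 247 histone and small RNA genes, which held 3.33% to 3.96% of the counts in the spleen libraries and 0.0305% to 0.0393% in the lung libraries, were set aside, leaving 13533 genes.

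The animals of all 4 groups were BALB/C recipients of B6 (C57BL/6) bone marrow depleted of T cells together with splenocytes, the graft that gives cGVHD, and both tissues were collected 30 days after hematopoietic cell transplantation (HCT). Donor-derived CD4+ T cells were then sorted by surface PSGL1 into a low and a high fraction, and their mRNA was sequenced in bulk. Whether the 2 libraries of a group stem from different animals is not in the labels, and the p-values therefore measure only the spread between these libraries, which may be technical. Levels are in CPM, counts per TMM-scaled library size multiplied to a fixed total, so that libraries of different depth can be compared.

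PSGL1, encoded by Selplg, is a ligand of the selectins through which leukocytes roll on vessel walls, and CD4+ T cells that lose it include T follicular helper cells. Follicular helper cells need the transcription factors BCL6 and TCF1 and help B cells through ICOS, CD40 ligand and interleukin 21. In cGVHD, donor T cell help to B cells is known to go along with autoantibody production, in lymphoid organs and in the tissues under attack.

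Selplg itself had 383 and 456 CPM in lung PSGL1lo against 925 and 994 CPM in lung PSGL1hi libraries, and 281 and 238 CPM in spleen PSGL1lo against 516 and 491 CPM in spleen PSGL1hi libraries. In both tissues the low fraction lay below the high one without overlap, by -1.19 ± 0.09 (log2 ± SE) in lung and by -0.96 ± 0.09 in spleen. The difference between the tissues, -0.24 ± 0.13, was not called (adjusted p = 0.23 by edgeR's quasi-likelihood test, which gives every adjusted p below). The libraries held 13283091 to 28413717 counts, so that 3 counts, the limit that a count of 0 allows, equal 0.118 to 0.223 CPM, a limit that covers counting error only. The 12 genes of CD4+ T cell identity summed to 11012 and 11294 CPM in lung PSGL1lo and 10996 and 11076 CPM in lung PSGL1hi, and to 7354 and 7193 CPM in spleen PSGL1lo and 6956 and 7066 CPM in spleen PSGL1hi libraries. The B cell genes Cd79a and Ms4a1 had 15 and 19 counts over the 8 libraries. Of the B and plasma cell list, Cd79b had 210, Cd22 1530, Jchain 2179 and Cd74 64392 counts. Jchain was highest in spleen PSGL1hi, at a mean of 44.9 CPM. The spleen and lung libraries carry numbers of separate series, lower in spleen than in lung. Whether a number series marks a batch or an order in time is not in the labels. Tissue and number series cannot be told apart in any level compared between lung and spleen. Each contrast of PSGL1lo with PSGL1hi lies within 1 series, but the difference between the tissues spans both. In bulk samples, fewer cells of a type and less RNA per cell cannot be told apart either.

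The PSGL1lo effect differed between lung and spleen for 2234 of the 13533 genes, 16.5%, at an adjusted p under 0.05. Of these, 729 genes (5.39%) were shifted towards PSGL1lo cells in lung relative to spleen and are called higher below, and 1505 genes (11.1%) were shifted away and are called lower. With the null value moved from 0 to a 1.5-fold difference, 301 genes (2.22%) were called, 149 higher (1.1%) and 152 lower (1.12%). The split depended on the scaling of libraries: with library totals and no scaling factor the median difference over all genes moved to 0.11 from -0.015, and 2288 genes were called, 1378 higher and 910 lower, or 191 higher and 86 lower past 1.5-fold. Without the second spleen PSGL1hi library 1474 genes were called, 187 of them past 1.5-fold, and 197 were past 1.5-fold without the first spleen PSGL1lo library.

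Within the tissues, 4521 genes (33.4%) were called between PSGL1lo and PSGL1hi in lung, 1757 (13%) higher and 2764 (20.4%) lower in PSGL1lo cells; with no scaling factor 3141 were higher and 1659 lower. In spleen 4349 genes (32.1%) were called, 2098 (15.5%) higher and 2251 (16.6%) lower. The effects in lung and spleen correlated across genes with r = 0.384 and rho = 0.395 (n = 13533 genes, which are not independent replicates), and 2004 of the 2317 genes called in both tissues went the same way. The other 313 were called in both tissues in opposite directions, and every one of them was called in the difference between tissues. Genes called in 1 tissue made up most of the rest, with 799 called in lung only and 738 in spleen only. A same direction with a larger effect in lung was found for 209 genes and with a larger effect in spleen for 99, and 76 genes were called in neither tissue by itself.

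**Figure D1:**
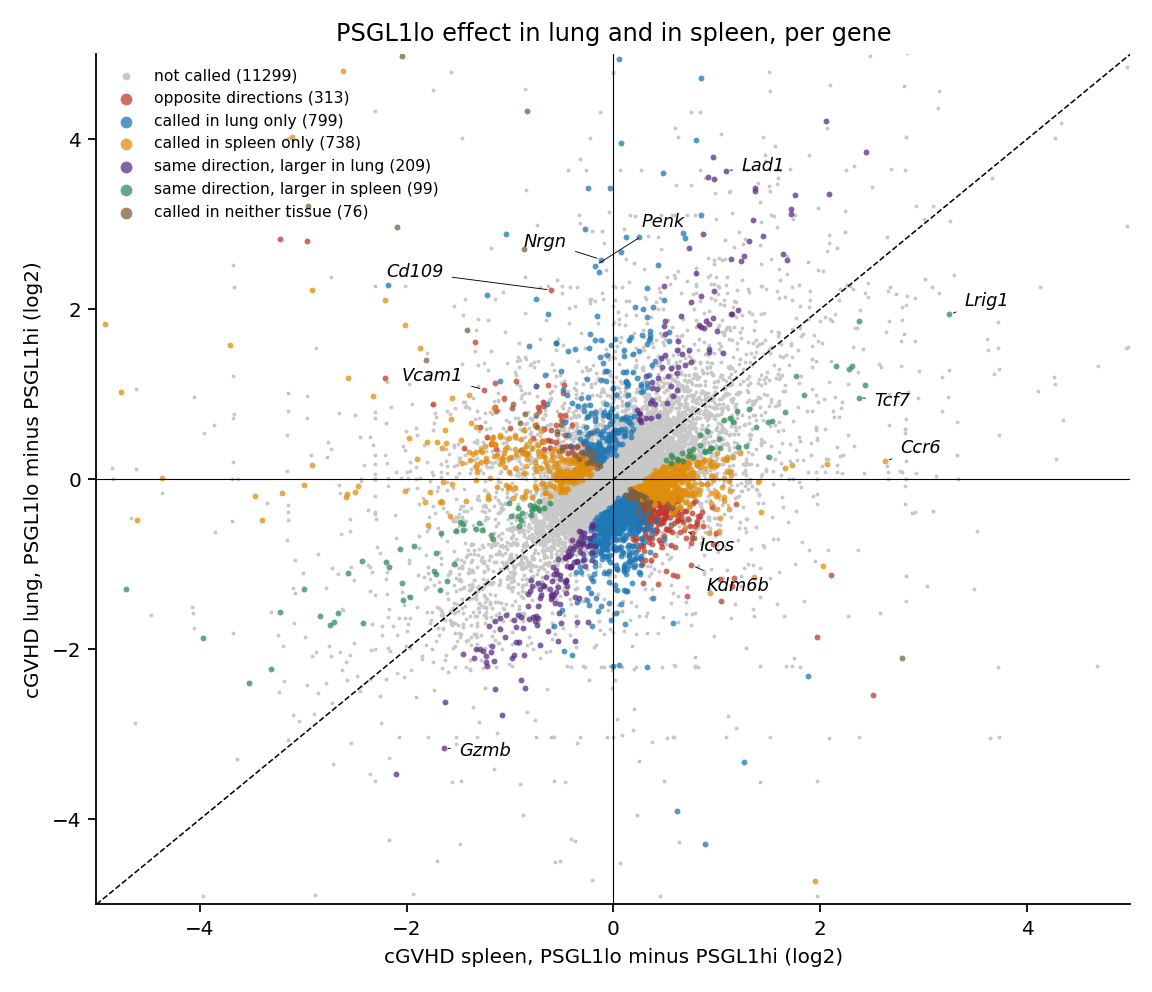
Each point is 1 of the 13533 genes, with the log2 PSGL1lo minus PSGL1hi effect in cGVHD lung on the y axis and in cGVHD spleen on the x axis, coloured by how the 2234 called genes fall, and 76 genes beyond 5 on either axis are not drawn. Genes on the dashed line have equal effects; the 313 genes called in opposite directions lie in the upper left and lower right parts, where Cd109 and Kdm6b are marked.

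Genes of the immediate early response, which T cells switch on within minutes of antigen receptor signals or stress and which encode AP-1, EGR and NR4A transcription factors and their feedback inhibitors, were lower as a group. Of the 39 genes listed, 31 were lower (79.5%) and 2 higher (5.13%), beside 11.1% and 5.39% over all genes tested. The median difference was -0.63 beside -0.015 over all genes. In lung, 26 of the 39 were lower and 4 higher in PSGL1lo than in PSGL1hi cells, beside 20.4% and 13% of all genes. In spleen, 4 were lower and 16 higher, beside 16.6% and 15.5%. Over 16 alternative settings of the analysis, which include both other scalings, 24 to 34 of the genes were lower and 2 or 3 higher.

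Atf3, a stress-induced transcription factor, had 44.7 and 55.1 CPM in lung PSGL1lo against 138 and 138 CPM in lung PSGL1hi libraries. In spleen, levels were 51.6 and 54.8 CPM in PSGL1lo against 47.4 and 53.6 CPM in PSGL1hi libraries. The lung fractions were far apart and the spleen fractions overlapped, a difference of -1.55 ± 0.17 (adjusted p = 1.8e-06). Nr4a3, a nuclear receptor induced by antigen receptor signals, had 321 and 217 CPM in lung PSGL1lo against 461 and 326 CPM in lung PSGL1hi libraries. The spleen values were 78.4 and 75.1 CPM in PSGL1lo against 45.1 and 39.0 CPM in PSGL1hi libraries. Its lung groups nearly met, at 321 and 326 CPM, its spleen groups were apart in the other direction, and the difference was -1.42 ± 0.22 (adjusted p = 0.00013). Btg1 also stands on the list, although it is an antiproliferative factor that keeps T cells quiescent. It had 1001 and 1109 CPM in lung PSGL1lo against 1549 and 1538 CPM in lung PSGL1hi libraries. Spleen levels were 1014 and 1056 CPM in PSGL1lo against 646 and 551 CPM in PSGL1hi libraries. No groups overlapped within a tissue, and Btg1 was called in opposite directions, as were Fosb, Maff and Rgs2 among others of the 8 such genes on the list.

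Tnfaip3, an inhibitor of NF-kB signalling, differed by -1.12 ± 0.11 and Rgs1, which dampens chemokine receptor signals, by -1.04 ± 0.13; both were called lower in lung PSGL1lo cells and in neither direction in spleen. Klf4, a Kruppel-like transcription factor, was higher in PSGL1lo cells of both tissues, by 0.26 ± 0.09 in lung and by 1.51 ± 0.11 in spleen. The 2 exceptions to the list's direction were Egr2, a regulator of T cell tolerance and of follicular helper cells, with a difference of 0.97 ± 0.14, and Ier3, with 1.39 ± 0.26. Egr2 had 54.8 and 43.9 CPM in lung PSGL1lo against 18.4 and 18.3 CPM in lung PSGL1hi libraries. Spleen libraries had 91.8 and 89.9 CPM in PSGL1lo against 65.2 and 66.9 CPM in PSGL1hi cells, so that it was higher in PSGL1lo cells of both tissues.

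Summed over the 39 genes, the immediate early list stood at 18840 and 21415 CPM in lung PSGL1lo, 29886 and 29870.0 CPM in lung PSGL1hi, 15024 and 14411 CPM in spleen PSGL1lo and 13112 and 12742 CPM in spleen PSGL1hi libraries. The highest sums were thus those of lung PSGL1hi, and the spleen sums lay below all lung sums. The 20 chaperones of the heat shock response summed to 9912 and 10820 CPM in lung PSGL1lo and 13782 and 12727 CPM in lung PSGL1hi libraries. Their spleen sums were 4055 and 4231 CPM in PSGL1lo and 4331 and 4430.1 CPM in PSGL1hi libraries. In the difference 17 of the 20 were not called, 0 were higher and 3 were lower (15%, near the 11.1% over all genes). These were Hsph1 at -1.30, Dnaja1 at -0.98 and Hspa5 at -0.40, and Hspa5 lost its call in 8 alternatives. The count lower was 7 with no filter on low counts and 6 with the replicate number as a block. Hspa1a, an inducible HSP70 gene with the near-identical copy Hspa1b, had 1076 and 1193 CPM in lung PSGL1lo and 1498 and 1343 CPM in lung PSGL1hi, against 10.1 and 10.5 CPM in spleen PSGL1lo and 11.4 and 10.5 CPM in spleen PSGL1hi libraries. Both lists also respond to the handling of tissue before lysis, and the part of handling in these differences was not tested.

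**Figure D2:**
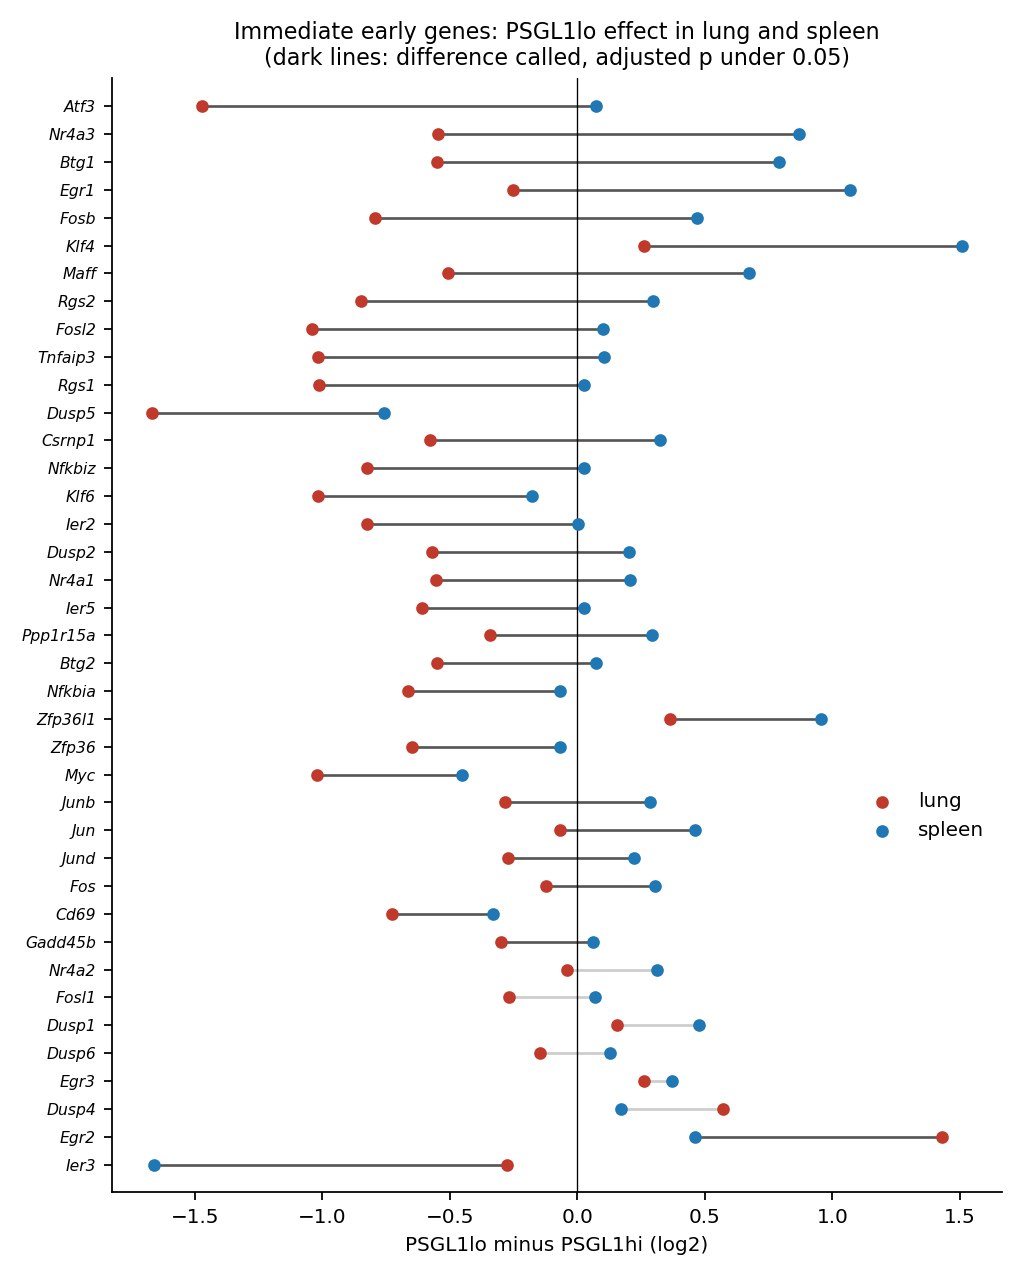
The 39 immediate early genes are ordered by their difference, with the log2 PSGL1lo minus PSGL1hi effect in lung and in spleen on the x axis and a dark line where the difference was called. Lung points lie left of the spleen points for 36 of the 39 genes, from Atf3 at the top to Egr3, and right of them for Dusp4, Egr2 and Ier3.

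Promoters are shown for 4 genes to set letters beside these values. They are 3 genes of the immediate early list that were lower, Nr4a3, Atf3 and Btg1, and 1 gene of B cell help with a higher difference, Pou2af1. All 4 hold the letters marked below, which most immediate early promoters and most genes tested do not. They are examples and do not stand for the list or for all genes. Each run holds 250 bases before and 50 bases after the annotated start, 5′ to 3′ on the gene's strand, from RefSeq on build GRCm38.p6, at chr4:48045055-48045354 (plus strand) for Nr4a3, chr1:191183284-191183583 (minus) for Atf3, chr10:96616751-96617050 (plus) for Btg1 and chr9:51213440-51213739 (plus) for Pou2af1. Capitals mark TGACGT, the core of the cAMP response element known to bind CREB and ATF proteins, or its reverse complement ACGTCA.
Nr4a3: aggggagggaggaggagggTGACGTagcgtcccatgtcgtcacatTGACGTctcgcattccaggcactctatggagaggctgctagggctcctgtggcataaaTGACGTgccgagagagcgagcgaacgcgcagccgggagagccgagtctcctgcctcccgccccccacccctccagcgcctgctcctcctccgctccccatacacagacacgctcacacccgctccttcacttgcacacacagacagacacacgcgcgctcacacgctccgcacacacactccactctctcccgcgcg
Atf3: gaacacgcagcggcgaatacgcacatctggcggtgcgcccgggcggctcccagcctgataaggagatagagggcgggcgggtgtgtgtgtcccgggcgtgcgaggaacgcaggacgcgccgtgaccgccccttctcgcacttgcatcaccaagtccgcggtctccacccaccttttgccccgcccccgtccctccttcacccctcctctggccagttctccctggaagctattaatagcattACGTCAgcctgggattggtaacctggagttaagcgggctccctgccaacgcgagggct
Btg1: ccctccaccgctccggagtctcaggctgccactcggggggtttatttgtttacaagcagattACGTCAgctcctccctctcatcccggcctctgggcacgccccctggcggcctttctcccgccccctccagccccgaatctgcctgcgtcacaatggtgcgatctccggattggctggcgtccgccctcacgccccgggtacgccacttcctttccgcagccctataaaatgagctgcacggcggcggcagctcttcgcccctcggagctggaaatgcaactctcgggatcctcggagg
Pou2af1: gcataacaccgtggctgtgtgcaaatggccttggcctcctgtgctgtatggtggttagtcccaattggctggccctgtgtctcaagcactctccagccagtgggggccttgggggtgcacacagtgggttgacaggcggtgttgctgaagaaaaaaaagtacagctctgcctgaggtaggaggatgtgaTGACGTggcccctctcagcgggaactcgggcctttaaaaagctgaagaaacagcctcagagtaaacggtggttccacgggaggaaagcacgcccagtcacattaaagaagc
The letters TGACGT, searched on both strands, occur 3 times in the Nr4a3 run and 1 time in each of the others. They occur in 10 of the 30 immediate early genes with a promoter in the RefSeq set (33.3%), among 39 tested, and in 9 of the 25 that were lower (36%). Among the 10733 genes tested that have a promoter the share was 11.9%; it was 8.54% of 574 genes called higher, 14.2% of 1180 called lower and 11.8% of 8979 not called, and 7.51% of all 32851 promoter entries. A match of letters is a description and not a binding site.

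Among genes for help to B cells and costimulation, Icos, Cd40lg, Cd28 and Maf were lower in lung and higher in spleen PSGL1lo cells. Of the 30 listed genes of B cell help, 3 were called in opposite directions, Icos, Cd40lg and Maf, and Cd86 and Tnfrsf9 of the costimulation list crossed the other way, higher in lung and lower in spleen PSGL1lo cells. Icos, the inducible costimulator of follicular helper cells, had 526 and 497 CPM in lung PSGL1lo against 786 and 764 CPM in lung PSGL1hi libraries. Spleen values were 531 and 515 CPM in PSGL1lo against 329.7 and 320.0 CPM in PSGL1hi libraries. Its effect was -0.60 ± 0.07 in lung and 0.69 ± 0.07 in spleen, with no overlap of groups in either, and the difference was -1.29 ± 0.10 (adjusted p = 8.7e-08). Cd40lg, the CD40 ligand, had 248 and 242 CPM in lung PSGL1lo against 373 and 307 CPM in lung PSGL1hi libraries. Spleen levels were 89.2 and 99.7 CPM in PSGL1lo against 55.9 and 58.8 CPM in PSGL1hi libraries. Here too the low fraction was the lower one in lung and the higher one in spleen, a difference of -1.19 ± 0.12 (adjusted p = 6.8e-07). Cd28, the main costimulatory receptor of T cells, showed the same pattern with a difference of -1.03 ± 0.11, and so did the transcription factor Maf at -0.96 ± 0.10.

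Il21, the cytokine by which follicular helper cells drive plasma cell formation, had 71.4 and 68.1 CPM in lung PSGL1lo against 21.6 and 17.7 CPM in lung PSGL1hi libraries. In spleen, levels were 246 and 247 CPM in PSGL1lo against 127 and 133 CPM in PSGL1hi libraries. It was higher in the low fraction of both tissues, with the larger effect in lung (1.83 ± 0.10 beside 0.92 ± 0.09) at lower levels, and a difference of 0.91 ± 0.13 (adjusted p = 4.7e-05). Tcf7, which encodes TCF1, went the other way in size: 1403 and 1623 CPM in lung PSGL1lo against 739 and 816 CPM in lung PSGL1hi libraries. The spleen values were 283 and 305 CPM in PSGL1lo against 56.9 and 56.7 CPM in PSGL1hi libraries. The effect on Tcf7 was 0.96 ± 0.07 in lung and 2.37 ± 0.08 in spleen, a difference of -1.41 ± 0.11 (adjusted p = 5e-08), and its lung PSGL1hi levels lay above its spleen PSGL1lo levels. Bcl6 likewise had 126 and 104 CPM in lung PSGL1lo against 79.0 and 64.2 CPM in lung PSGL1hi libraries. Spleen levels were 28.3 and 29.8 CPM in PSGL1lo against 11.1 and 9.08 CPM in PSGL1hi libraries. Its difference was -0.85 ± 0.17 (adjusted p = 0.0015), again with a larger effect in spleen and with higher levels in both lung fractions than in spleen.

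Cxcr5, the receptor that guides cells into B cell follicles, was higher in PSGL1lo cells by 2.21 ± 0.10 in lung and 1.90 ± 0.10 in spleen. Its difference of 0.31 ± 0.14 was not called (adjusted p = 0.14; called with library totals and without the second lung PSGL1hi library). Pou2af1, a coactivator of octamer-binding factors in lymphocytes, had 10.1 and 7.64 CPM in lung PSGL1lo against 0.648 and 0.627 CPM in lung PSGL1hi libraries. Spleen libraries had 4.77 and 3.01 CPM in PSGL1lo against 1.87 and 2.07 CPM in PSGL1hi cells, and the difference was called (adjusted p = 2.4e-05). Pdcd1, encoding PD-1, differed by 0.40 ± 0.10 (adjusted p = 0.0098, lost without any of 3 libraries: the first lung PSGL1lo, the second lung PSGL1hi and the second spleen PSGL1lo). Of the 30 genes of the follicular helper and B cell help list, 10 were higher (33.3%) and 8 lower (26.7%) in the difference. Over all genes the shares were 5.39% and 11.1%. The list had a median of 0.11 (0.07 to 0.23 over the 16 alternatives). Within lung, 22 of the 30 were higher and 5 lower in PSGL1lo cells, beside 13% and 20.4% of all genes. Within spleen 22 of the 30 were higher and 1 lower, beside 15.5% and 16.6%. Their sums were 6875 and 6851 CPM in lung PSGL1lo against 4961 and 4859 CPM in lung PSGL1hi libraries. Spleen values were 4887 and 4831 CPM in PSGL1lo against 3136 and 3117 CPM in PSGL1hi libraries.

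**Figure D3:**
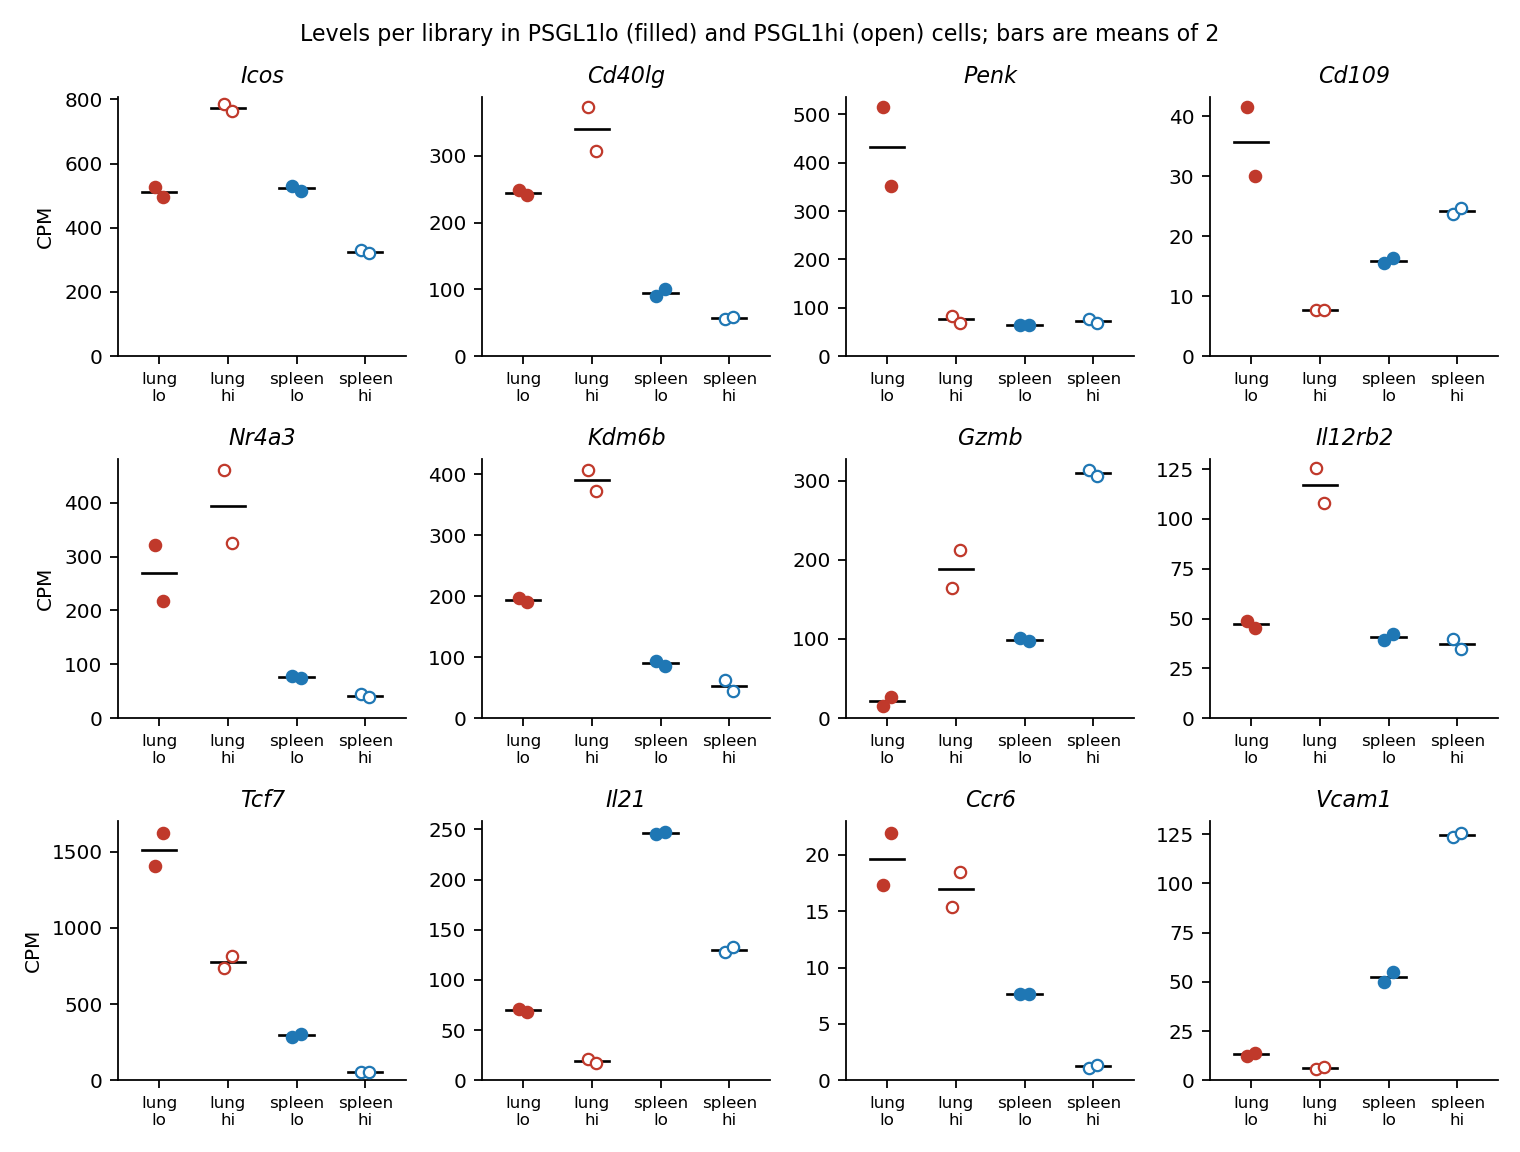
Levels in CPM on linear axes from 0 of 12 genes in every library, with lung PSGL1lo, lung PSGL1hi, spleen PSGL1lo and spleen PSGL1hi from left to right, each point 1 library and the bars the means of 2. Icos and Cd40lg are lower in PSGL1lo than in PSGL1hi cells in lung and higher in spleen; Penk reaches 515 and 352 CPM in lung PSGL1lo and stays at or under 83.7 CPM in the other 3 groups.

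A set of genes was higher in lung PSGL1lo cells and either not called or lower in spleen PSGL1lo cells. Penk, the precursor of enkephalin peptides, had 515 and 352 CPM in lung PSGL1lo against 83.7 and 68.1 CPM in lung PSGL1hi libraries. Spleen levels were 64.1 and 65.1 CPM in PSGL1lo against 77.2 and 68.7 CPM in PSGL1hi libraries. Only the lung low fraction of these 4 groups stood out, and the difference was 2.69 ± 0.19 (adjusted p = 2.7e-08). Nrgn, a calmodulin-binding protein, had 137 and 94.8 CPM in lung PSGL1lo against 21.3 and 17.4 CPM in lung PSGL1hi libraries. In spleen, levels were 8.64 and 8.17 CPM in PSGL1lo against 9.22 and 8.99 CPM in PSGL1hi libraries. Nrn1, encoding neuritin, followed with 36.7 and 23.6 CPM in lung PSGL1lo against 4.71 and 4.74 CPM in lung PSGL1hi libraries. The spleen values were 7.6 and 7.91 CPM in PSGL1lo against 7.02 and 7.74 CPM in PSGL1hi libraries. Nrgn differed by 2.70 ± 0.26 and Nrn1 by 2.60 ± 0.25, both called in lung and not in spleen.

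Cd109, a surface protein that binds TGF-beta, was called in opposite directions. It had 41.6 and 30.0 CPM in lung PSGL1lo against 7.65 and 7.68 CPM in lung PSGL1hi libraries. Spleen levels were 15.5 and 16.4 CPM in PSGL1lo against 23.7 and 24.6 CPM in PSGL1hi libraries, a difference of 2.82 ± 0.25 (adjusted p = 1.8e-07). Zbtb32, a transcriptional repressor of lymphocytes, also crossed over, with 8.39 and 7.41 CPM in lung PSGL1lo against 4.15 and 4.39 CPM in lung PSGL1hi libraries. Spleen libraries had 3.28 and 3.27 CPM in PSGL1lo against 11.3 and 10.6 CPM in PSGL1hi cells. Its difference was 2.63 ± 0.25. Tnfsf4, the OX40 ligand, had 16.5 and 12.7 CPM in lung PSGL1lo and 3.88 to 5.10 CPM in the libraries of the other 3 groups, a difference of 1.94 ± 0.27 (adjusted p = 3.5e-05), called in lung only. Its 2 lung PSGL1lo libraries stood above the other 6.

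Lad1, encoding ladinin, had 47.1 and 30.3 CPM in lung PSGL1lo against 3.29 and 2.98 CPM in lung PSGL1hi libraries. Spleen values were 10.1 and 8.82 CPM in PSGL1lo against 4.63 and 4.24 CPM in PSGL1hi libraries. The effect on Lad1 was 3.63 ± 0.19 in lung and 1.09 ± 0.20 in spleen, a difference of 2.54 ± 0.28 (adjusted p = 2e-06). Atp2b2, a plasma membrane calcium pump, differed by 2.64 ± 0.28, Ksr2, a scaffold of the MAP kinase cascade, by 2.56 ± 0.38, and Dclk1, a microtubule-associated kinase, by 2.05 ± 0.26, all with the effect in the same direction and larger in lung. Sostdc1, encoding an inhibitor of BMP and WNT signals that follicular helper cells are known to make, had 61.3 and 62.8 CPM in lung PSGL1lo against 0.778 and 0.784 CPM in lung PSGL1hi libraries. Spleen levels were 36.4 and 38.4 CPM in PSGL1lo against 1.92 and 2.55 CPM in PSGL1hi libraries. Both high fractions were thus between 0.778 and 2.55 CPM, and the low fractions far above them. Tox, a regulator of exhausted and follicular helper T cells, differed by 0.98 ± 0.10 and Cd200, a surface ligand of inhibitory signals, by 0.95 ± 0.14; Tox was called in lung only and Cd200 in both tissues.

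Kdm6b, a histone H3K27 demethylase, and Neurl3, a ubiquitin ligase, led the genes lowered in lung and raised in spleen. Kdm6b had 197 and 191 CPM in lung PSGL1lo against 407 and 373 CPM in lung PSGL1hi libraries. In spleen, levels were 93.9 and 86.2 CPM in PSGL1lo against 62.5 and 44.5 CPM in PSGL1hi libraries, a difference of -1.76 ± 0.15 (adjusted p = 1.5e-07). For Neurl3 the levels were 152 and 150.0 CPM in lung PSGL1lo against 357 and 309 CPM in lung PSGL1hi libraries. The spleen values were 39.0 and 40.8 CPM in PSGL1lo against 27.4 and 24.9 CPM in PSGL1hi libraries, a difference of -1.75 ± 0.13 (adjusted p = 2.7e-08). In neither gene did the groups of a tissue overlap. AW011738 at -2.47 ± 0.20, Atp8a2, a phospholipid flippase, at -2.40 ± 0.24 and Dusp8, a phosphatase of MAP kinases, at -2.20 ± 0.41 were further from 0, at lower levels.

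Genes of Th1 and cytotoxic cells were mostly lower in PSGL1lo cells, 23 of 27 in lung, with 3 higher, and 19 of 27 in spleen, with 4 higher. Over all genes 20.4% were lower and 13% higher in lung, and 16.6% and 15.5% in spleen. Gzmb, the protease granzyme B, had 15.2 and 27.1 CPM in lung PSGL1lo against 164 and 213 CPM in lung PSGL1hi libraries. Spleen levels were 101 and 97.4 CPM in PSGL1lo against 313 and 305 CPM in PSGL1hi libraries. The effect was -3.16 ± 0.16 in lung and -1.64 ± 0.14 in spleen, a difference of -1.52 ± 0.21 (adjusted p = 2.7e-05). Il12rb2, a chain of the interleukin 12 receptor, had 48.9 and 45.1 CPM in lung PSGL1lo against 126 and 108 CPM in lung PSGL1hi libraries. Spleen libraries had 39.0 and 42.3 CPM in PSGL1lo against 39.9 and 34.7 CPM in PSGL1hi cells. Its spleen groups overlapped, its lung groups did not, and it differed by -1.44 ± 0.16 (adjusted p = 1.6e-06). Gzma differed by -1.36 ± 0.34 (adjusted p = 0.0072); the call was lost with DESeq2, without the first lung PSGL1lo and without the second lung PSGL1hi library, and the value was -2.00 without the second lung PSGL1lo library. Of the 27 genes of this list 2 were higher (7.41%) and 10 lower (37%), beside 5.39% and 11.1% over all genes, with a median of -0.23. With no scaling factor the split was 8 higher and 9 lower and the median -0.10. The 2 higher became 4 with no filter on low counts, with the replicate number as a block or without the first lung PSGL1lo library, and 1 without the first lung PSGL1hi or either spleen PSGL1lo library. Ifng was lower in both low fractions, by -0.61 ± 0.07 in lung and -0.32 ± 0.08 in spleen, and its difference of -0.29 ± 0.11 was not called (adjusted p = 0.064; called with DESeq2 and with the replicate number as a block).

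Genes of tissue residency were more often lower than higher in the difference, as were all genes tested. Of 28 genes, 2 were higher (7.14%) and 13 lower (46.4%) in the difference, beside 5.39% and 11.1% over all genes. The median was -0.36, and -0.29 without the second spleen PSGL1hi library. The 13 include 5 that also stand on the immediate early list, Nr4a3, Nr4a1, Rgs1, Rgs2 and Cd69, of which Cd69 differed by -0.40 (adjusted p = 0.043, lost in 7 alternatives). Prdm1, encoding the repressor BLIMP1, had 62.7 and 81.0 CPM in lung PSGL1lo against 161 and 188 CPM in lung PSGL1hi libraries. Spleen values were 126 and 120.0 CPM in PSGL1lo against 149 and 141 CPM in PSGL1hi libraries, a difference of -1.04 ± 0.14 (adjusted p = 1.6e-05). The integrins Itgae and Itga1 and the chemokine receptor Cxcr6, by which resident T cells are often recognised, were lower in PSGL1lo cells in each tissue, and their differences of 0.09, -0.05 and -0.09 were not called. With standard errors of 0.14, 0.18 and 0.11, differences of that size cannot be told from 0. The 2 genes that were higher were Xcl1, a chemokine that attracts cross-presenting dendritic cells, at 1.59 ± 0.22, and Crtam, a receptor of cytotoxic CD4+ T cells, at 1.31 ± 0.19. Xcl1 had 97.4 and 81.0 CPM in lung PSGL1lo against 36.1 and 23.9 CPM in lung PSGL1hi libraries. Spleen levels were 12.7 and 13.8 CPM in PSGL1lo against 11.7 and 15.2 CPM in PSGL1hi libraries, so that it was apart in lung and overlapped in spleen.

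Among genes of circulation and egress, 3 of 24 were higher (12.5%) and 8 lower (33.3%), beside 5.39% and 11.1% over all genes, with a median of -0.22. The median was -0.33 without the first and -0.11 without the second lung PSGL1hi library, -0.13 without the first lung PSGL1lo library and -0.09 with no scaling factor. S1pr1, the receptor that leads T cells out of tissues, was lower in the low fraction of both tissues, by -1.49 ± 0.09 in lung and -0.82 ± 0.09 in spleen, a difference of -0.67 ± 0.13 (adjusted p = 0.00087). Klf2, which drives S1pr1, differed by -0.78 ± 0.19 (adjusted p = 0.0058), a call lost without the second spleen PSGL1hi library. The naive and memory list had 3 genes higher (12.5%) and 11 lower (45.8%) of 24, with a median of -0.55. Ccr7, the lymph node homing receptor, overlapped between the lung fractions (effect -0.02 ± 0.11) and was higher in spleen PSGL1lo cells (1.11 ± 0.13), a difference of -1.14 ± 0.17 (adjusted p = 6.7e-05). Lrig1, an inhibitor of growth factor receptors, was higher in both low fractions, by 1.94 ± 0.09 in lung and 3.25 ± 0.12 in spleen.

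Of the Th17 genes, 6 of 12 tested were lower in the difference, with a median of -0.45, and 5 or 6 were lower under each of the 16 alternatives. The 6 were 50% of the list, beside 11.1% of all genes, and 0 were higher, beside 5.39%. The median was less settled than the count, at -1.02 without the second spleen PSGL1lo library and -0.94 without the second spleen PSGL1hi library. Ccr6, the chemokine receptor of Th17 cells, had 17.3 and 22 CPM in lung PSGL1lo and 15.4 and 18.5 CPM in lung PSGL1hi, which overlapped, against 7.67 and 7.65 CPM in spleen PSGL1lo and 1.08 and 1.38 CPM in spleen PSGL1hi libraries. The difference was -2.42 ± 0.28 (adjusted p = 3.4e-06), carried by the spleen. Il23r, the interleukin 23 receptor, had 4.88 and 4.24 CPM in lung PSGL1lo against 11.9 and 8.07 CPM in lung PSGL1hi libraries. The spleen values were 4.77 and 5.49 CPM in PSGL1lo against 0.983 and 1.38 CPM in PSGL1hi libraries, opposite directions in the 2 tissues and a difference of -3.23 ± 0.37 (adjusted p = 3.5e-06). Rora, a transcription factor of Th17 and innate-like lymphocytes, had 460.3 and 462 CPM in lung PSGL1lo against 989.6 and 962 CPM in lung PSGL1hi libraries. Spleen levels were 418 and 437 CPM in PSGL1lo against 299 and 302 CPM in PSGL1hi libraries, a difference of -1.59 ± 0.11 (adjusted p = 2.7e-08). Il22 lay between 0.0468 and 2.70 CPM in the 8 libraries, too near the limit of detection for a fold.

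Of 13 Th2 genes 5 were higher and 3 lower, with a median of 0.56; 2 were higher without the first lung PSGL1lo library and 3 without the second lung PSGL1hi or the second spleen PSGL1lo library. In the fit of all libraries 38.5% of the Th2 genes were higher and 23.1% lower, beside 5.39% and 11.1% of all genes. Il13, a Th2 cytokine, was lower in PSGL1lo cells of both tissues, with 10.9 and 6.34 CPM in lung PSGL1lo against 19.1 and 16.3 CPM in lung PSGL1hi libraries. Spleen libraries had 11.2 and 14.8 CPM in PSGL1lo against 60.7 and 56.7 CPM in PSGL1hi cells. The drop was larger in spleen, which gave a positive difference of 1.13 ± 0.27 (adjusted p = 0.0053) that was not called without the first lung PSGL1lo library. Pparg, a nuclear receptor of Th2 cells, differed by 1.56 ± 0.24 in the same sense, and Ccr4, a chemokine receptor of Th2 and regulatory cells, by -1.19 ± 0.14. Foxp3, the regulator of regulatory T cells, had 7.08 and 7.5 CPM in lung PSGL1lo against 53.6 and 52.7 CPM in lung PSGL1hi libraries. Spleen values were 4.25 and 3.59 CPM in PSGL1lo against 20.5 and 16.6 CPM in PSGL1hi libraries. It was lower in both low fractions, and its difference of -0.62 ± 0.22 was not called (adjusted p = 0.055; called with the replicate number as a block and without the first spleen PSGL1hi library). Of 19 genes of regulatory T cells 6 were higher (31.6%) and 3 lower (15.8%), beside 5.39% and 11.1% of all genes. The list had a median of 0.09 (0.08 to 0.22 over the alternatives). Tnfrsf9, the receptor 4-1BB, was higher in lung and lower in spleen PSGL1lo cells, a difference of 1.14 ± 0.15.

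Lag3, an inhibitory receptor, had 219 and 193 CPM in lung PSGL1lo against 135 and 129 CPM in lung PSGL1hi libraries. Spleen levels were 98.8 and 96.5 CPM in PSGL1lo against 171 and 159 CPM in PSGL1hi libraries. It was called in opposite directions, without overlap in either tissue, and differed by 1.40 ± 0.11 (adjusted p = 5.4e-08). Ctla4, a brake on CD28 costimulation, moved the other way, by -0.76 ± 0.11, with a lower level in lung PSGL1lo cells and no call in spleen. Inhibitory receptors and exhaustion genes were split accordingly, with 10 of 25 higher (40%) and 9 lower (36%), beside 5.39% and 11.1% of all genes. The list had a median of 0.05, which was -0.05 without the first lung PSGL1lo library.

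Proliferation genes were lower in the PSGL1lo fractions of both tissues almost without exception. This held for 37 of 38 in lung and 38 of 38 in spleen, beside 20.4% and 16.6% of all genes. Their difference between tissues was small, with a median of -0.21 (-0.32 without the first and -0.05 without the second lung PSGL1hi library). Of the 38, 8 were lower (21.1%) and 1 higher (2.63%), beside 11.1% and 5.39% over all genes. Counts of 4 or 5 lower were reached without each of 5 libraries (the first lung PSGL1lo, the second lung PSGL1hi, the second spleen PSGL1lo and both spleen PSGL1hi) and 5 with no scaling factor. Cdc6, which loads the replicative helicase, had 4.11 and 4.78 CPM in lung PSGL1lo against 20.7 and 25 CPM in lung PSGL1hi libraries. In spleen, levels were 24.2 and 22.3 CPM in PSGL1lo against 43.7 and 42.6 CPM in PSGL1hi libraries, a difference of -1.47 ± 0.18 (adjusted p = 8.3e-06). Mki67 fell by 1.24 ± 0.07 on the log2 scale in lung and by 1.02 ± 0.07 in spleen, a difference of -0.22 ± 0.10 that was not called (adjusted p = 0.16).

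Of 41 interferon-stimulated genes, 10 were higher and 7 lower in the low fraction of lung, beside 13% and 20.4% of all genes. In that of spleen 24 were higher and 2 lower, beside 15.5% and 16.6%. In the difference 1 was higher (2.44%) and 8 lower (19.5%), beside 5.39% and 11.1% over all genes. With no scaling factor 3 were lower. The median was -0.27, with -0.17 without the second lung PSGL1hi and -0.15 without the first spleen PSGL1hi library. Mx1, an antiviral GTPase, had 22.5 and 24.4 CPM in lung PSGL1lo against 29.3 and 27.0 CPM in lung PSGL1hi libraries. The spleen values were 26.3 and 28.5 CPM in PSGL1lo against 17.8 and 19.2 CPM in PSGL1hi libraries, a difference of -0.83 ± 0.17 (adjusted p = 0.0013).

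Among receptors of common gamma chain cytokines and their feedback, 7 of 20 were lower (35%) and 1 higher (5%), beside 11.1% and 5.39% over all genes. The median of -0.11 changed sign to 0.016 with no scaling factor. Il4ra, the interleukin 4 receptor chain, had 128 and 129 CPM in lung PSGL1lo against 296 and 256 CPM in lung PSGL1hi libraries. Spleen levels were 180.3 and 177 CPM in PSGL1lo against 192 and 182 CPM in PSGL1hi libraries, a difference of -1.04 ± 0.11 (adjusted p = 9.9e-07). Itgb3, the integrin beta 3 chain, differed by -1.51 ± 0.11, being lower in lung and higher in spleen PSGL1lo cells. Of 24 chemokine receptors and related genes, 4 were higher (16.7%) and 8 lower (33.3%). Of the metabolic lists, 1 of 25 glycolysis and hypoxia genes was higher (4%) and 6 lower (24%). Of 25 cholesterol synthesis genes, 5 were lower (20%). Over all genes tested 5.39% were higher and 11.1% lower. The cholesterol median was -0.07, with 0.06 under no scaling factor and 0.0084 without the second spleen PSGL1hi library. Slc3a2, a subunit of amino acid transporters, had 266 and 274 CPM in lung PSGL1lo against 553 and 524 CPM in lung PSGL1hi libraries. Spleen libraries had 146 and 149 CPM in PSGL1lo against 129 and 116 CPM in PSGL1hi cells, a difference of -1.27 ± 0.11 (adjusted p = 1.6e-07).

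**Figure D4:**
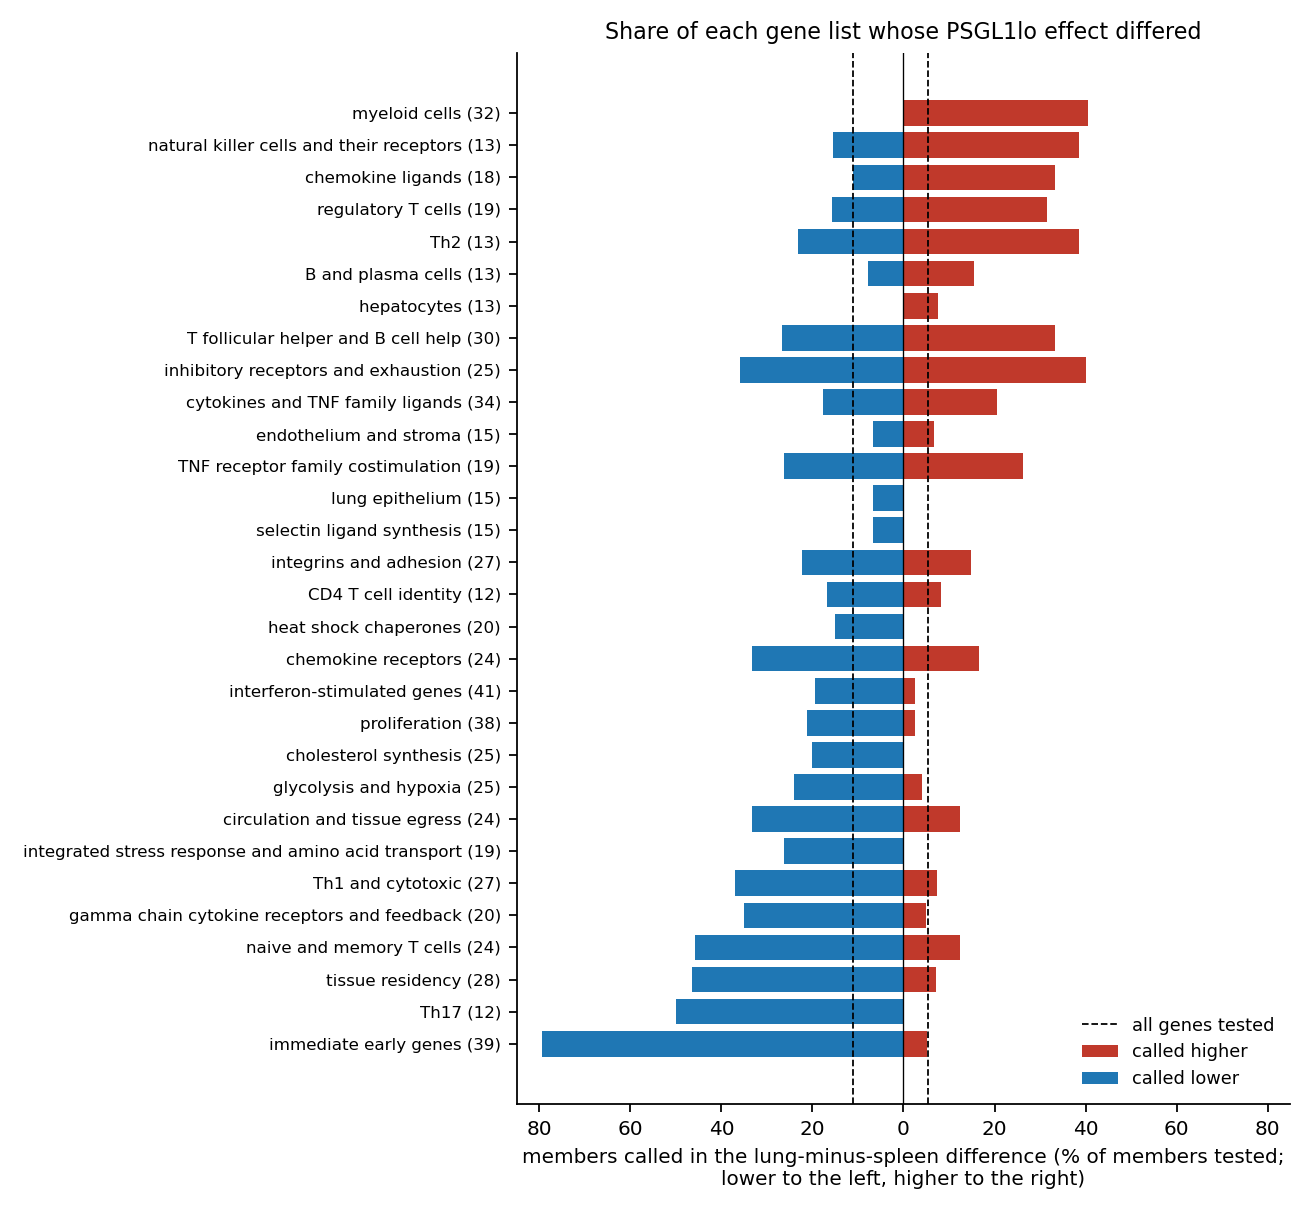
Bars give the percentage of each list's tested genes that were called higher or lower in the difference, for the 30 lists with at least 10 tested genes, with dashed lines at the share over all 13533 genes (5.39% higher and 11.1% lower). Immediate early genes have the highest share lower, 79.5%, and myeloid cell genes have 40.6% higher.

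Markers of other cells moved with part of these results. Of 32 myeloid genes tested 13 were higher in the difference, with a median of 1.28; 8 were higher without the first spleen PSGL1lo library and 7 with DESeq2. The 13 were 40.6% of the list, beside 5.39% of all genes, and 0 were lower, beside 11.1%. In spleen 14 of the myeloid genes were lower and 0 higher in PSGL1lo cells, beside 16.6% and 15.5% of all genes. In lung 0 were lower and 5 higher, beside 20.4% and 13%. Their sums were 2199 and 3107 CPM in lung PSGL1lo and 1942 and 2403 CPM in lung PSGL1hi, against 733 and 720 CPM in spleen PSGL1lo and 1162 and 1263 CPM in spleen PSGL1hi libraries. Csf1r, the receptor that maintains macrophages, had 19.5 and 28.6 CPM in lung PSGL1lo and 17.1 and 21.4 CPM in lung PSGL1hi, against 29.1 and 28.9 CPM in spleen PSGL1lo and 71.9 and 73.8 CPM in spleen PSGL1hi libraries, and the complement gene C1qb differed by 1.72 ± 0.24. Vcam1, an adhesion molecule that splenic macrophages also carry, moved with them, with 12.2 and 14 CPM in lung PSGL1lo against 5.84 and 6.74 CPM in lung PSGL1hi libraries. Spleen values were 49.8 and 55 CPM in PSGL1lo against 124 and 126 CPM in PSGL1hi libraries, a difference of 2.30 ± 0.22 (adjusted p = 3.7e-07). Arg1, which macrophages also express, differed by 2.02 ± 0.21 and Spp1, encoding osteopontin, by 1.2 ± 0.17. The part of myeloid cells in these differences, and in that of Cd86 above, was not tested.

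Il1a, Cxcl2 and Jchain had a group under 1 CPM and are given as levels. Il1a had 34.3 and 44.1 CPM in lung PSGL1lo and 27.3 and 41.1 CPM in lung PSGL1hi, against 0.521 and 0.980 CPM in spleen PSGL1lo and 2.29 and 1.94 CPM in spleen PSGL1hi libraries. Cxcl2, a neutrophil chemoattractant, had 32.4 and 41.1 CPM in lung PSGL1lo and 24.9 and 29.1 CPM in lung PSGL1hi, against 0.596 and 0.850 CPM in spleen PSGL1lo and 2.39 and 2.72 CPM in spleen PSGL1hi libraries. Jchain, the joining chain of antibodies, had 0.274 to 1.04 CPM in the 4 lung libraries, against 3.20 and 5.23 CPM in spleen PSGL1lo and 40.7 and 49 CPM in spleen PSGL1hi libraries. Among chemokine ligands 6 of 18 were higher (33.3%) and 2 lower (11.1%), beside 5.39% and 11.1% of all genes. The ligands had a median of 0.80, which was 0.32 without the second lung PSGL1lo library. The count higher ran between 4 and 8 over the alternatives, and Ccl1 led those above 10 CPM at 1.80 ± 0.20. The 2 CD8 genes were higher in the difference: Cd8a had 2.37 and 3.08 CPM in lung PSGL1lo against 12.3 and 13.4 CPM in lung PSGL1hi libraries. Spleen levels were 5.14 and 4.31 CPM in PSGL1lo against 47.3 and 46.2 CPM in PSGL1hi libraries. Natural killer receptors, some with near-identical copies, had 5 of 13 higher and 2 lower (3 higher with DESeq2 and without the first lung PSGL1hi, the first spleen PSGL1lo or the second spleen PSGL1hi library), with Klrd1 at 1.47 ± 0.22 and Klrk1 at 1.10 ± 0.17. Of the natural killer receptors 38.5% were higher and 15.4% lower in the fit of all libraries, beside 5.39% and 11.1% of all genes. Anxa1, an anti-inflammatory phospholipid-binding protein, was lower in both low fractions and more so in spleen, with a difference of 1.47 ± 0.15. Of the natural killer list, Ncr1 had 11 and Klra8 4 counts over the 8 libraries and were not tested. Klrk1 had 14391 and Klrc1 6825 counts. The natural killer genes tested summed to 214 and 199 CPM in lung PSGL1lo against 477 and 471 CPM in lung PSGL1hi, and to 109.5 and 122 CPM in spleen PSGL1lo against 269 and 301 CPM in spleen PSGL1hi libraries. Their part, and that of CD8 cells, in the cytotoxic genes above was not tested. Among 7 erythroid and platelet, 3 mast cell and basophil, and 3 NKT and gamma delta T cell genes no difference was called by edgeR, DESeq2 or limma voom, and 1, an erythroid and platelet gene, had an unadjusted p under 0.05. Lung epithelium had 1 of 15 lower, endothelium and stroma 1 higher and 1 lower of 15, hepatocytes 1 of 13 higher, and B and plasma cells 2 higher and 1 lower of 13, with 0 to 4 higher over the alternatives and 0 without the second lung PSGL1lo library. Slc4a1, the red cell anion exchanger, was at 37.8 to 40.9 CPM in the spleen and at most at 0.0447 CPM in the lung libraries, and the club cell gene Scgb1a1 had 1.99 and 78.6 CPM in lung PSGL1lo and 37.9 and 31.4 CPM in lung PSGL1hi libraries, beside 0.0653 CPM or less in spleen.

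The liver, the third tissue of the cGVHD animals, gives a further set of values. The difference does not contrast them, but the liver libraries entered the fit of all 14 libraries. Their numbers belong to the same series as those of lung. Histone and small RNA genes held 0.0304% to 0.0331% of the liver counts, near the lung share. Likeness of liver to lung rather than to spleen therefore cannot be told apart from number series. In liver 2857 genes (21.1%) were called between PSGL1lo and PSGL1hi, 1165 (8.61%) higher and 1692 (12.5%) lower. With no scaling factor 1623 were higher and 1285 lower, and 1550 and 1638 were called without the first and the second liver PSGL1hi library. Of the 227 genes higher in the difference and called in lung only, 85 were higher and 3 lower in liver PSGL1lo cells, and of the 572 lower ones 4 were higher and 198 lower. Of the 273 genes higher in the difference and called in spleen only, 7 were higher and 48 lower in liver, and of the 465 lower ones 76 were higher and 7 lower. By size, the liver effect was nearer that of lung than of spleen for 96 of the 227 and 242 of the 572 genes called in lung only. The same held for 179 of the 273 and 376 of the 465 genes called in spleen only. Among genes called in opposite directions, 12 of 61 and 19 of 252 were higher in liver and 7 and 15 lower. Penk had 389 and 356 CPM in liver PSGL1lo against 100.2 and 105 CPM in liver PSGL1hi libraries, an effect of 1.86 beside 2.51 in lung and -0.17 in spleen. Icos had 307 and 364 CPM in liver PSGL1lo against 241 and 248 CPM in liver PSGL1hi libraries, an effect of 0.46 that shares its sign with spleen. Cd40lg was likewise higher in liver PSGL1lo cells, by 0.27, and the Gzmb effect there was -1.57, beside -3.16 in lung and -1.64 in spleen. Kdm6b at 0.29 and Cd109 at 0.22 were not called in liver.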

How the data were processed

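Bulk mRNA of sorted CD4+ T cells was sequenced after Qiagen RNeasy extraction and Kapa mRNA HyperPrep library preparation, per the labels' protocols. The authors deposited unnormalised read counts, 1 whole number per gene and library; the submitters' processing notes name TopHat2 2.0.8, HTSeq and mm9. Annotation, strand setting and filtering of reads are not given in the sources used, so counts of overlapping and antisense genes, and of near-identical copies (Hspa1a and Hspa1b, Klr genes, Ifit3 and Ifit3b, H2 genes, Ccl6 and Ccl9, Gapdh), are uncertain. A number in the library names marks PSGL1hi in liver but PSGL1lo in lung; groups were taken from the sample labels, and Selplg levels follow them. The chi-square per degree of freedom between replicates was 5.1 to 10.9 in the 4 groups, above sampling noise, so none was treated as a copy.

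The analysis used edgeR 4.0.16 in R 4.3.3: filterByExpr left 13780 genes, libraries were scaled by TMM (factors 0.9046 and 0.8985 in lung PSGL1hi and 0.9993 to 1.0269 in the other 6 libraries compared), and all 14 libraries entered a quasi-likelihood model with a mean for each group, 7 residual degrees of freedom and a common BCV (biological coefficient of variation) of 7.35%. Tests were 2-sided with Benjamini-Hochberg adjustment over the 13780 genes at 0.05; glmTreat tested against a 1.5-fold difference. Counts in the text leave out 57 histone and 190 small RNA genes. Genes were named by rule: called, the highest of the 4 group means at least 10 CPM and each at least 1 CPM, the same sign in all 16 combinations of 1 library per group, and the 5 largest per pattern, plus the 3 largest per T cell list, 1 marker per other cell type and 20 key genes; genes with a group under 1 CPM are given as levels, and a few genes the rule picks are not reported here. The members and the 34 gene lists were chosen with earlier results of these data known, and other genes named in the text, such as Btg1, Tnfaip3, Egr2, Lag3, Rora, Tox, Csf1r, Hspa1a and Scgb1a1, were chosen after their values were seen. Alternatives were DESeq2 1.42.0, limma 3.58.1 voom, DESeq2 size factors, no filter on low counts, the 8 libraries alone, the set-aside genes removed first, a replicate block, each replicate left out and, added after seeing the data, library totals with no scaling factor. Promoters came from RefSeq on GRCm38.p6; no coordinates were moved between builds.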

Additional observations from a re-analysis of the deposited data

Results flagged for a closer look

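The results below were picked out because the PSGL1lo effect itself differed between lung and spleen by a test of that difference, which held for 2234 genes. Among genes called in opposite directions, those with the largest positive values of the named-gene rule were Cd109 (log2 difference 2.82), Zbtb32 (2.63), Vcam1 (2.30), 2900026A02Rik (2.10) and Arg1 (2.02). The negative values were those of AW011738 (-2.47), Atp8a2 (-2.40), Dusp8 (-2.20), Kdm6b (-1.76) and Neurl3 (-1.75), and of Icos (-1.29) and Cd40lg (-1.19) among the key genes. Each of these 12 genes kept its call and its sign in all alternatives run. With 2 libraries in each group, a library far from the others of its group could not be tested for.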

How the results depend on the processing

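The number of genes whose PSGL1lo effect differed between lung and spleen, 2234, was 2139 to 2496 under other tools, scalings, filters and sample sets, and 1474 to 1989 with 1 library left out; the lowest count came without the second spleen PSGL1hi library. Past 1.5-fold the 301 genes became 156 with DESeq2, 139 with limma voom, 423 with no filter on low counts and 187 to 262 with 1 library left out. Counts with 1 library left out were 3133 to 3453 in lung, 2981 to 3777 in spleen and 1550 to 3676 in liver. Replicate numbers are shared between groups, and the labels do not say that a number marks a shared animal or batch. The deviations of same-numbered libraries correlated by 0.26 in lung, 0.26 in spleen and 0.04 in liver, not above 0.1 in every tissue, so that the numbers were not taken as pairs, although a shared source in lung and spleen was not tested; with the replicate number as a block 2774 genes were called (935 higher, 1839 lower) and 384 past 1.5-fold. Of 114 named genes 100 were called, 84 of them in every alternative, 16 lost the call in at least 1, and 0 changed sign. The values that changed sign belong to genes that were not called: Cxcr6 (0.0393 with no scaling factor, -0.1738 to 0.0493 with a library left out), Itga1 (0.079 with no scaling factor, -0.1913 to 0.1153 with a library left out), Prss34 (0.9959 with voom, -1.6185 to 0.0961 with a library left out) and Slc4a1 (-0.0119 to 3.1226 with a library left out). Of 34 list medians, 8 changed sign in at least 1 alternative, 6 of them medians within 0.2 of 0: chemokine receptors (-0.5232 to 0.0096 with a library left out), gamma chain receptors (0.0155 with no scaling factor), erythroid genes (0.3766 with voom, -0.5004 to 1.1361 with a library left out), cholesterol synthesis (-0.1871 to 0.0629), cytokines and TNF ligands (-0.1021 to 0.0957), inhibitory receptors (-0.0474 to 0.1791), endothelium and stroma (-0.1857 to 0.3169) and lung epithelium (-0.5727 to 0.2898). The hepatocyte median of 0 ran between -1.7321 and 2.2148. The cause was not tested. Depth limits genes under about 1 CPM, where a group lies near 3 counts.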
